A study of Mus musculus with 18 samples.

Results

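The genes described here encode the respiratory chain and ATP synthase of mitochondria. They were chosen by symbol: nuclear genes that start with Nduf, Sdh, Uqcr, Cox4, Cox5, Cox6, Cox7, Cox8 or Atp5, and the mRNAs of the mitochondrial genome (mt-Nd, mt-Co, mt-Cytb and mt-Atp). Pseudogenes were left out, and a mean of at least 5 CPM (counts scaled to a common library size) over the 18 libraries was required. Of 39017 gene identifiers in the count tables, 121 had such a symbol, 11 of these were pseudogenes, and 11 of the remaining 110 had a mean under 5 CPM. The other 99 genes, 87 nuclear and 12 mitochondrial, are the members. Just above the limit lay Ndufaf8 with 5.27 CPM, and just below it lay Ndufaf6 with 3.25, Sdhaf1 with 3.0 and mt-Nd3 with 2.76 CPM. The scaling used the trimmed mean of M values over all 18 libraries.

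RNA was isolated from mouse brain by TRAP, translating ribosome affinity purification, which pulls down tagged ribosomes of one cell type with the mRNA they carry. The series title gives layer II neurons of the entorhinal cortex as the source, while the tissue label of each library reads hippocampus; no source used here names the driver of the ribosome tag. In the silencing experiment mice received a vector with mCherry and either Ptbp1 shRNA (4 libraries) or scrambled shRNA (5 libraries). In the overexpression experiment they received a vector with mCherry and either Ptbp1 (5 libraries) or a control insert (4 libraries). Every library is 1 mouse with both entorhinal cortices pooled. The submitters left out 1 Ptbp1 shRNA mouse and 1 control mouse of the overexpression experiment, in which no mCherry read was found. Ptbp1 encodes an RNA-binding protein that represses exons in many cell types, and the comparisons ask what changing it does to the ribosome-bound mRNA of these neurons.

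The respiratory chain moves electrons from NADH and succinate to oxygen through complexes I to IV, and the proton gradient they build drives ATP synthase, complex V. Most subunits are encoded in the nucleus, translated on cytosolic ribosomes and imported, while a small core is encoded by mitochondrial DNA, transcribed by its own polymerase and translated on mitochondrial ribosomes inside the organelle. A tag on a cytosolic ribosomal protein does not mark the ribosomes that translate mitochondrial mRNA. Complex II is the exception among the complexes, with all its subunits encoded in the nucleus.

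Of the 87 nuclear members, 73 had a promoter (250 bases before to 50 after the start) in the RefSeq table for GRCm38.p6. The recognition sequence of NRF1, a transcription factor known for respiratory genes, was searched for as GCGCA, any base, then GCGC, on both strands. It was found in 21 of the 73 (28.8%), against 5.19% of all 27025 genes in the table. CCGGAAG, a core bound by ETS factors such as GABP, was found in 27.4% of the 73 against 9.93% of all genes, and AAGATGGC, a core bound by YY1, in 13.7% against 3.19%. The letters overlap other motifs, and a match describes the sequence only. Stretches of 80 bases upstream of Cox6a1, Ndufa11 and Sdha are shown, since their values are given below. The capitals mark the NRF1 match, and all are given 5′ to 3′ on the strand of the gene.
Cox6a1, chr5:115349076-115349155, minus strand: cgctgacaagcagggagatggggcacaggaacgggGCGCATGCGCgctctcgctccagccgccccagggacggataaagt
Ndufa11, chr17:56717667-56717746, plus strand: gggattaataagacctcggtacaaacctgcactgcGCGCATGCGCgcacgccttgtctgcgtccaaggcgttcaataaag
Sdha, chr13:74350294-74350373, minus strand: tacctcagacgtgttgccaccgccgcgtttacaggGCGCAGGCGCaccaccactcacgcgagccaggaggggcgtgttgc
The 21 members with the match and the 52 without it had median log2 fold changes of 0.09 and 0.06 for Ptbp1 shRNA against scrambled shRNA, and of 0.04 and 0.03 for Ptbp1 overexpression against its control. Between the control groups, described last, the medians were -0.47 with 10 of 21 called and -0.80 with 28 of 52 called. Of all genes tested in that comparison, 35.8% were called.

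Before the results, several features set the libraries apart. Gene counts were 34339355 to 46544178 per library in the silencing experiment and 18288627 to 39056655 in the overexpression experiment, yet 14841 to 17908 genes were detected in the former against 19893 to 21456 in the latter. Of the well-covered exon bins (50 counts or more on average), a silencing library lacked any count in 1.24% to 8.30% and an overexpression library in 0.0213% to 0.0551%; Ptbp1 shRNA replicate 2 (8.30%) and scrambled shRNA replicate 5 (7.61%) had the highest shares. Ptbp1 itself stood at 7.79, 0.12, 0.70 and 15.6 CPM in those labelled Ptbp1 shRNA and at 4.06, 1.11, 8.01, 0.417 and 10.8 with scrambled shRNA, so these groups overlapped and the knockdown was not detectable at this level. With the Ptbp1 vector it stood at 97.6 to 130.5 CPM against 8.27 to 14.4 with the control vector, though counts cannot separate vector-borne from endogenous mRNA. Summed markers of excitatory neurons reached 2858 to 7353 CPM, of astrocytes 397 to 1648, of interneurons 310 to 767 and of microglia 1.70 to 31.1. In the scrambled shRNA libraries the astrocyte sum was 1068 to 1648 CPM and the excitatory sum 5213 to 7353, against 485 to 1196 and 2858 to 4314 with Ptbp1 shRNA; their part in the results below was not tested. In bulk libraries such as these, fewer cells of a type and less RNA per cell cannot be told apart.

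Nuclear members were compared first as a sum over all 87. It was 8290, 9412, 6979 and 10958 CPM with Ptbp1 shRNA and 9775, 8896, 8735, 8784 and 9548 with scrambled shRNA. It was 11584 to 12494 CPM with Ptbp1 overexpression and 11696 to 12496 with its control, so every overexpression library lay above every silencing library. The 12 mitochondrial mRNAs summed to 1411, 4404, 1848 and 1784 CPM with Ptbp1 shRNA and to 614, 2006, 1637, 1569 and 2345 with scrambled shRNA. They summed to only 54.2 to 142 CPM with Ptbp1 overexpression and 109 to 192 with its control, below every silencing library. Nuclear and mitochondrial members thus lay in opposite order between the experiments.

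**Figure D1:**
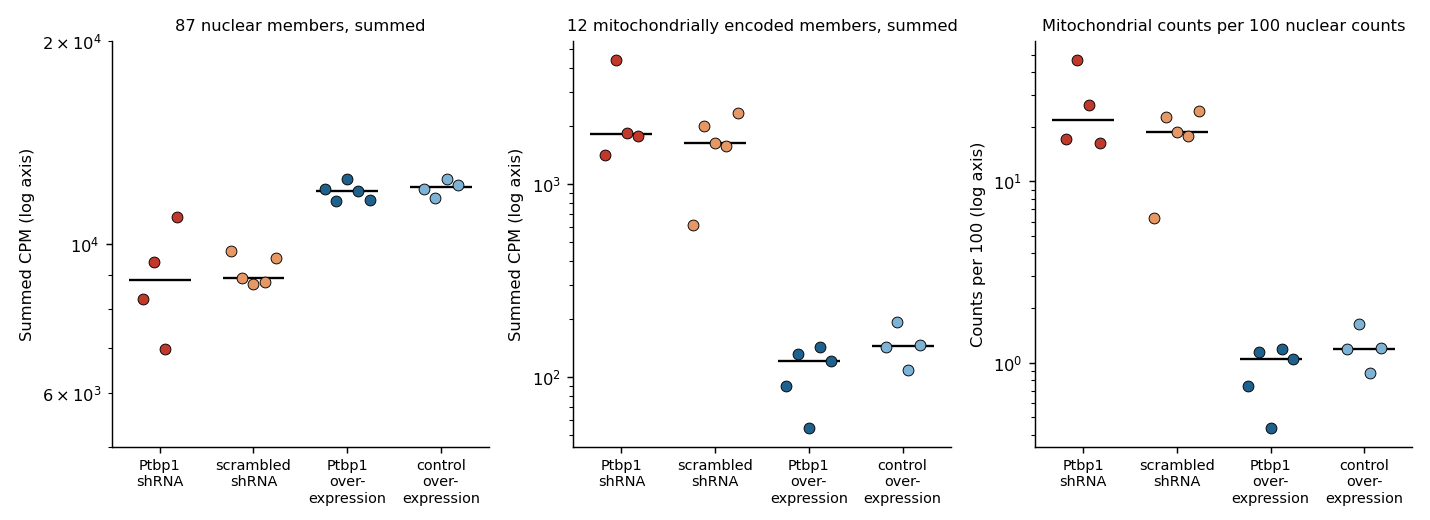
Summed level of the 87 nuclear and the 12 mitochondrial members in each library (CPM, log axes), and the mitochondrial counts per 100 nuclear counts, by treatment group; each point is 1 library and bars are medians. The nuclear sums lie between 6979 and 12496 CPM in all 18 libraries, while the mitochondrial sums lie between 614 and 4404 CPM in the silencing experiment and between 54.2 and 192 in the overexpression experiment.

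Per kilobase of transcript, the scale used for levels between genes, the median nuclear member stood at 48.3 CPM per kb with Ptbp1 shRNA, 46.8 with scrambled shRNA, 84.0 with Ptbp1 overexpression and 83.6 with its control. Among the complexes, cytochrome c oxidase (complex IV) had medians of 204, 154, 206 and 205 in the same order, and ATP synthase had 149, 130, 190 and 176. Complex I subunits had lower medians, 34.7, 35.7, 75.8 and 69.6, and the assembly factors the lowest, 13.6, 10.4, 16.1 and 17.2. Assembly factors help to build a complex without staying in it. Members were assigned to complexes by symbol, apart from Ndufa4, and only Ndufaf and Sdhaf genes were counted as assembly factors. Whether every other member is a stable subunit was not examined.

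Atp5b, the catalytic beta subunit of ATP synthase, had the highest level per kilobase of coding sequence of any nuclear member of its complex. Its CPM were 2252, 1969, 1981 and 2917 with Ptbp1 shRNA, 2926, 2407, 2563, 2876 and 2459.7 with scrambled shRNA, 2734, 1990.3, 2462, 2699.5 and 2505 with Ptbp1 overexpression, and 2589, 3112, 2764 and 2479 with its control. All 4 groups overlapped. The highest of the other complexes were Ndufc1, Sdhd, Uqcr10 and Ndufa4, the last a former complex I protein now placed in complex IV. Ndufa4 stood at 283, 273, 151 and 504 CPM with Ptbp1 shRNA and 220.4, 218, 161, 192 and 228 with scrambled shRNA, and at 179 to 229 CPM in all 9 overexpression libraries; here too the groups overlapped.

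Several complex IV subunits exist as forms for different tissues, and the members included the forms known from brain and most other tissues. Cox4i1 had a mean of at least 5 CPM while Cox4i2, the lung form, had 0.0261. Cox7a2 and Cox8a were members, while the muscle forms Cox7a1 (0.438 CPM) and Cox8b (0.0117 CPM) were not. Cox6b2, a testis form, had 0.226 CPM, and Ndufa4l2, known to be induced in low oxygen, had 0.109.

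Mitochondrial mRNAs were set against nuclear members within each library, which needs no scaling between libraries. For 100 counts of nuclear members there were 17.0, 46.8, 26.5 and 16.3 counts of mitochondrial members with Ptbp1 shRNA, and 6.28, 22.6, 18.7, 17.9 and 24.6 with scrambled shRNA. There were 0.747, 1.14, 0.434, 1.19 and 1.04 with Ptbp1 overexpression and 1.18, 1.64, 0.872 and 1.20 with its control. The shRNA and scrambled groups overlapped, as did the overexpression and control groups, whereas no library of one experiment came near the other. On the log2 scale the ratio was higher by 0.57 with Ptbp1 shRNA than with scrambled shRNA (1.48-fold), less than the pooled SD of 0.76 between libraries, and by 0.22 without scrambled shRNA replicate 1. It was lower with Ptbp1 overexpression than with its control by a log2 difference of -0.48 (0.717-fold), less than the pooled SD of 0.52, and by -0.24 without Ptbp1 overexpression replicate 3. Between the scrambled and the control vector libraries it differed by 3.77 (13.7-fold), several times the pooled SD of 0.65.

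The libraries with the highest mitochondrial ratio in each silencing group, Ptbp1 shRNA replicate 2 and scrambled shRNA replicate 5, were those with the most well-covered exon bins at 0. Of 6 listed RNAs that stay in the nucleus or are not translated, 3 were higher and 3 lower with Ptbp1 shRNA than with scrambled shRNA. Their median log2 fold change was -0.05. Malat1, a nuclear RNA of that list, also differed between these libraries. It stood at 286, 1125, 459 and 307 CPM with Ptbp1 shRNA, at 91.7, 166, 131, 154 and 307 with scrambled shRNA, and at 56.7 to 148 in the overexpression experiment. The 2 mitochondrial ribosomal RNAs together stood at 4108 to 7301 CPM with Ptbp1 shRNA, 1646 to 4521 with scrambled shRNA and 227 to 770.3 in the overexpression experiment. The part of exon coverage and of these RNAs in the mitochondrial values was not tested.

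Not all mitochondrial mRNAs made the same contribution. mt-Co1, the catalytic subunit of cytochrome c oxidase (chrM:5328-6872), took 21.2% to 28.9% of mitochondrial member counts in the silencing libraries and 44.6% to 57.8% in the overexpression libraries. Several complex I mRNAs showed the reverse: mt-Nd4 took 14.7% to 22.5% against 7.25% to 11.6%, mt-Nd5 took 14.8% to 24.6% against 5.62% to 8.98%, and mt-Nd2 took 3.96% to 7.23% against 0.571% to 1.60%. For mt-Nd1 the ranges overlapped, 6.66% to 10.7% against 8.86% to 12.5%, and for mt-Nd6 they met, 0.639% to 2.71% against 0.145% to 0.773%. Within an experiment the shares of mt-Co1 overlapped between treatments.

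**Figure D2:**
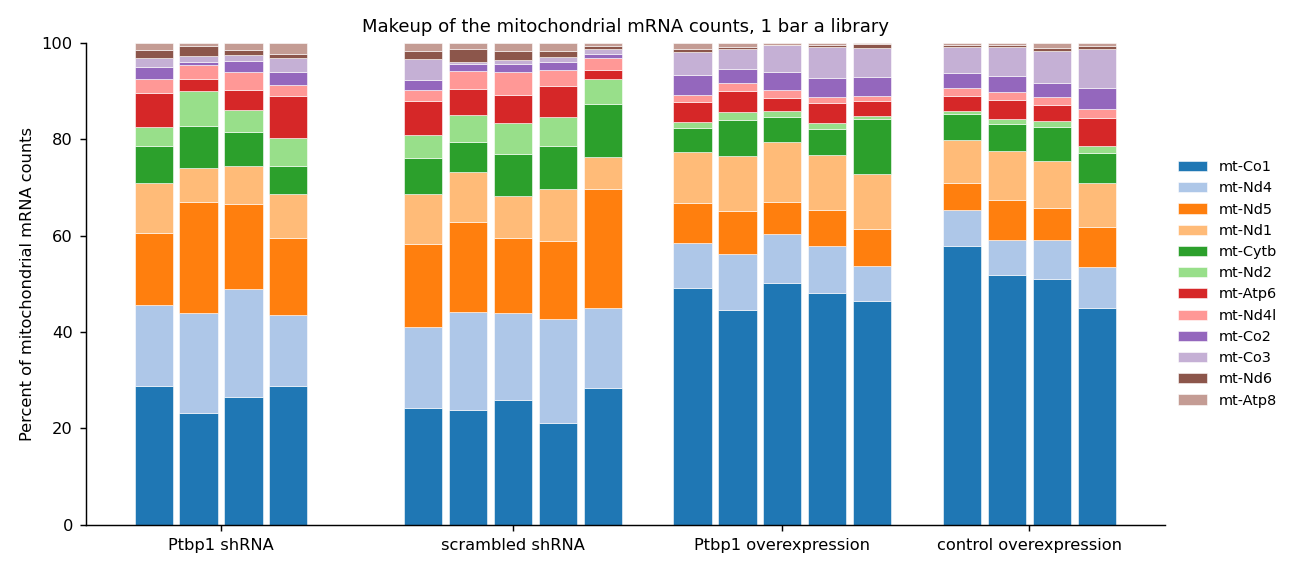
Share of mitochondrial member counts taken by each mitochondrial mRNA in every library (percent, stacked bars that start at 0). mt-Co1 takes 21.2% to 28.9% in the silencing libraries and 44.6% to 57.8% in the overexpression libraries.

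Copies of mitochondrial DNA in the nuclear genome limit what some of these counts show. In the GENCODE M21 transcripts, every 50-base window of mt-Co2 also occurred in a transcript of another gene, as did 99.9% of those of mt-Co3, 99.5% of mt-Atp6, 98.8% of mt-Nd4l, 62.2% of mt-Nd4 and 51.1% of mt-Co1. The share was 0% for mt-Nd1, mt-Nd6, mt-Cytb and mt-Atp8, 8.2% for mt-Nd2 and 7.6% for mt-Nd5. Counts of the first 6 are uncertain for that reason, and the other 6 are given beside them below. Only identical windows in annotated transcripts were searched, so other nuclear copies were not looked for. Neighbouring mitochondrial genes also overlap: mt-Atp8 and mt-Atp6 share 43 bases, and mt-Nd5 and mt-Nd6 share 14 on opposite strands, which cannot be separated where strand was not used in counting. Among nuclear members, Atp5g2 (87.4% of windows), Atp5l (84.8%), Cox7c (53.0%) and Uqcrb (43.4%) were among those with such copies, and their counts are uncertain in the same way.

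Silencing was examined first: Ptbp1 shRNA against scrambled shRNA. All 12 mitochondrial mRNAs had a positive log2 fold change, with a median of 0.56 and a range from 0.30 for mt-Nd4l to 1.21 for mt-Co3, while 47 of 87 nuclear members were positive, with a median of 0.06. Over all 14656 genes tested, 51.2% were positive and the median was 0.03. The mitochondrial mRNAs were often high or low together in a library, so their shared sign is not 12 separate results. By edgeR's quasi-likelihood test no member passed a Benjamini-Hochberg adjusted p of 0.05, and neither did any other gene (0% called). At an unadjusted p under 0.05 there were 2 higher and 4 lower nuclear members and 1 higher mitochondrial mRNA, against 844 higher (5.76%) and 795 lower (5.42%) among all genes. DESeq2 called 703 genes (3.22%), among them Ndufa10 and Atp5e, both lower; limma-voom called 69 genes (0.471%) and no member. A fit that shared the spread over all 18 libraries called 1775 genes (9.98%) and 8 of 87 nuclear members, Cox6a1 and Ndufb3 higher and 6 lower, a share near that of all genes. Without Ptbp1 shRNA replicate 2 the mitochondrial median was 0.02, so that library decides the size of the difference.

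mt-Co3, a core subunit of complex IV, had the largest difference of the mitochondrial mRNAs. Its CPM were 27.2, 52.2, 23.9 and 49.5 with Ptbp1 shRNA and 26.7, 7.55, 11.6, 14.3 and 22.5 with scrambled shRNA. The groups overlapped, because scrambled replicate 1 lay above Ptbp1 shRNA replicate 3. The log2 fold change was 1.21 (SE 0.49, 95% interval 0.15 to 2.27, edgeR adjusted p = 0.381), and nearly all windows of this gene have a copy elsewhere.

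mt-Nd1 (chrM:2751-3707), the complex I subunit at the quinone site, has no such copies. It stood at 147, 315, 146 and 164 CPM with Ptbp1 shRNA and at 64.2, 209.6, 143, 167 and 156 with scrambled shRNA. Ptbp1 shRNA replicate 2 was high and scrambled replicate 1 low, and the remaining libraries of both groups lay between 143 and 209.6 CPM. The log2 fold change was 0.39 (SE 0.35, 95% interval -0.36 to 1.13, edgeR adjusted p = 0.749).

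mt-Co1 stood at 406, 1022, 489.9 and 515 CPM with Ptbp1 shRNA and at 149, 480.0, 425, 332 and 666 with scrambled shRNA. Its log2 fold change was 0.57 (SE 0.38, 95% interval -0.25 to 1.39, edgeR adjusted p = 0.636). mt-Cytb, the only mitochondrial subunit of complex III, stood at 109, 379.9, 130.1 and 105 CPM against 45.6, 123, 144, 141 and 257, with a log2 fold change of 0.35 (SE 0.48). For both mRNAs the groups overlapped, and Ptbp1 shRNA replicate 2 was the highest library. The 6 mRNAs with many copied windows had a median log2 fold change of 0.57 and the 6 with few had 0.49.

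**Figure D3:**
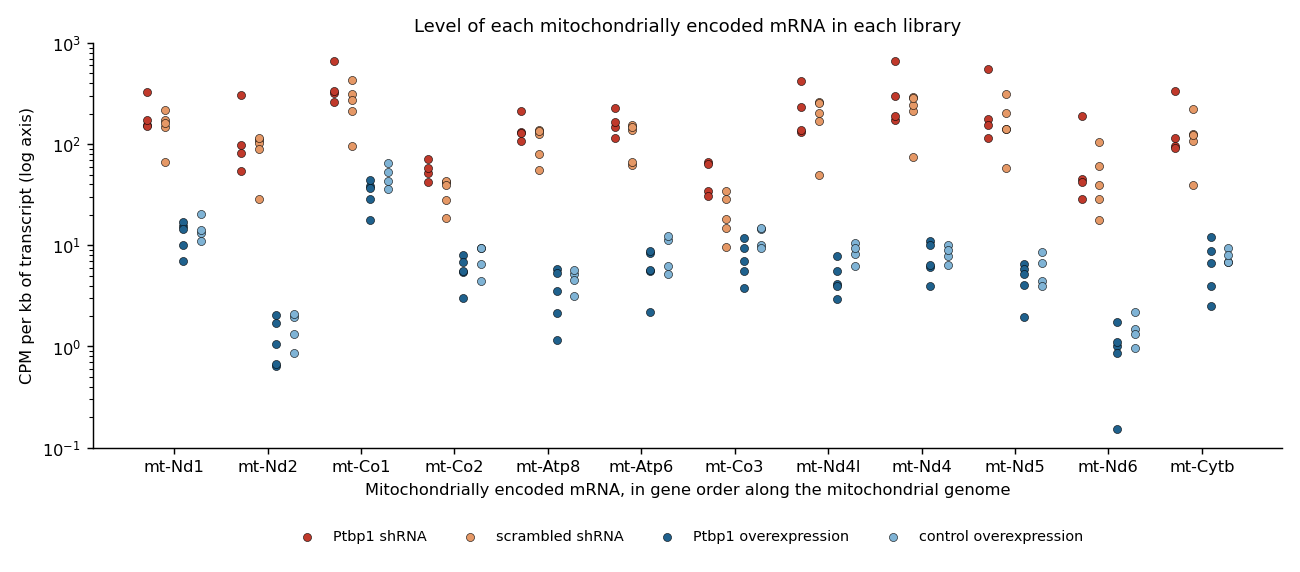
Level of each mitochondrial mRNA in every library, as CPM per kb of transcript on a log axis, in gene order along the mitochondrial genome; each point is 1 library, coloured by treatment group. For every mRNA except mt-Co3 all silencing points lie above all overexpression points; in CPM the lowest silencing value of mt-Co3 was 7.55 and its highest overexpression value 11.6.

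By complex, the nuclear members had small medians in both directions in the silencing comparison, with no member called. Complex I had a median log2 fold change of 0.06 (20 of 36 positive), complex III 0.09 (6 of 8), complex IV 0.36 (7 of 12), complex V -0.04 (7 of 17) and the assembly factors 0.30 (7 of 10). All 4 complex II subunits were negative, with a median of -0.46 and none called. Sdha, its flavoprotein, stood at 257, 345, 107 and 311 CPM with Ptbp1 shRNA and at 414, 452, 341, 304 and 438 with scrambled shRNA, and those groups overlapped.

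In 3 of 87 nuclear members every Ptbp1 shRNA library lay below every scrambled library, against 2.48% of all genes, and in none did every one lie above, against 2.37%. These 3 were Ndufa10, Atp5c1 and Ndufs8. Ndufa10 (chr1:92439010-92473860, minus strand), an accessory subunit in the membrane arm of complex I, had the smallest p of all members. It stood at 68.8, 51.1, 56.4 and 67.6 CPM with Ptbp1 shRNA and at 147, 118, 111, 102 and 167 with scrambled shRNA. The highest shRNA library was below the lowest scrambled one, and the log2 fold change was -1.08 (SE 0.27, 95% interval -1.66 to -0.50, edgeR adjusted p = 0.163).

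Atp5c1 (chr2:10056016-10080510, minus strand) encodes the gamma subunit, the central shaft of ATP synthase. It stood at 188, 181, 127 and 223 CPM with Ptbp1 shRNA and at 304, 244, 288, 268 and 347 with scrambled shRNA. The groups did not overlap, with a log2 fold change of -0.69 (SE 0.22, edgeR adjusted p = 0.262). Ndufs8, an iron-sulfur subunit of complex I, stood at 6.68, 1.26, 6.73 and 7.64 CPM against 19.7, 11, 21.3, 7.90 and 13.1. The nearest libraries of its groups almost touched, and its log2 fold change of -1.38 had an SE of 0.70 (edgeR adjusted p = 0.494). Atp5e, the small epsilon subunit, had the most negative value, -1.62 (SE 0.57, edgeR adjusted p = 0.301), with 9.47, 6.24, 17.2 and 6.30 CPM against 12.9, 45.3, 21.3, 23.7 and 48.0. Its groups overlapped through scrambled replicate 1.

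In the other direction, Cox6a1 (chr5:115345642-115348981, minus strand), the non-muscle form of a complex IV subunit, had the smallest p. It stood at 157, 146, 122 and 188 CPM with Ptbp1 shRNA and at 92.9, 83.4, 109.8, 123 and 99.2 with scrambled shRNA. Only Ptbp1 shRNA replicate 3 reached into the scrambled range, and the log2 fold change was 0.60 (SE 0.24, 95% interval 0.08 to 1.11, edgeR adjusted p = 0.370). The complex I subunits Ndufb3 and Ndufa1 followed, with log2 fold changes of 1.18 (SE 0.51) and 1.08 (SE 0.53) and edgeR adjusted p of 0.414 and 0.478. Ndufa1 ranged from 16.1 to 49.6 CPM with Ptbp1 shRNA and from 5.34 to 22.5 with scrambled shRNA, so its groups overlapped.

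Overexpression was compared next: the Ptbp1 vector against its control. Here the libraries were much closer to each other, and the nuclear members lay close to 0: 52 of 87 were positive, their median log2 fold change was 0.03, and they ranged from -0.22 to 0.22. All 12 mitochondrial mRNAs were negative, with a median of -0.36 and a range from -0.82 to -0.15. Since they were often high or low together in a library, this too is not 12 separate results. Among all 16480 genes tested the edgeR test called 7 (0.0425%), 0.0364% higher and 0.00607% lower, none of them a member; DESeq2 called 39 genes (0.154%) and no member. At an unadjusted p under 0.05 there were 0 nuclear members and 3 mitochondrial mRNAs, all lower, against 2.79% of all genes higher and 1.99% lower. Without Ptbp1 overexpression replicate 3, which had the lowest mitochondrial sum, the mitochondrial median was -0.21.

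The 3 mitochondrial mRNAs were mt-Nd4l (log2 fold change -0.82, SE 0.31), mt-Co1 (-0.58, SE 0.23) and mt-Co3 (-0.70, SE 0.28), each with an edgeR adjusted p of 0.974. mt-Co1 stood at 44.3, 58.9, 27.3, 68.3 and 56.4 CPM with Ptbp1 overexpression and at 82.4, 99.6, 55.6 and 66.1 with its control. mt-Co3 stood at 4.37, 5.50, 2.95, 9.35 and 7.41 CPM against 7.87, 11.4, 7.30 and 11.6. Both overlapped between groups. These 3 all have many copied windows; the 6 such mRNAs had a median of -0.54, and the 6 with few copies had -0.34. mt-Nd1, with no copied windows, stood at 9.57, 14.8, 6.77, 16.2 and 13.8 CPM against 12.6, 19.5, 10.5 and 13.6. Its log2 fold change was -0.20 (SE 0.24).

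Ndufa10 was the only nuclear member of 87 whose overexpression libraries all lay below their controls, against 0.649% of all genes; none lay wholly above, against 1.12%. Its CPM were 167, 173, 167, 171 and 166 with Ptbp1 overexpression and 199, 184, 176 and 179.7 with its control. The gap between the groups was small, and the log2 fold change was -0.13 (SE 0.07, 95% interval -0.28 to 0.02, edgeR adjusted p = 0.974). Cox6a1, at 213, 223, 203, 204 and 207 CPM against 207, 201, 222 and 234, had a log2 fold change of -0.05 (SE 0.07). Atp5c1, at 254, 237, 259.9, 249 and 256 CPM against 276, 242, 288 and 274, had -0.11 (SE 0.08). The members with the smallest p among those higher were Ndufa3 (0.19), Atp5l (0.16) and Ndufs3 (0.15), and among those lower, after Ndufa10, Ndufb6 (-0.22) and Ndufaf1 (-0.19), none of which passed the test.

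**Figure D4:**
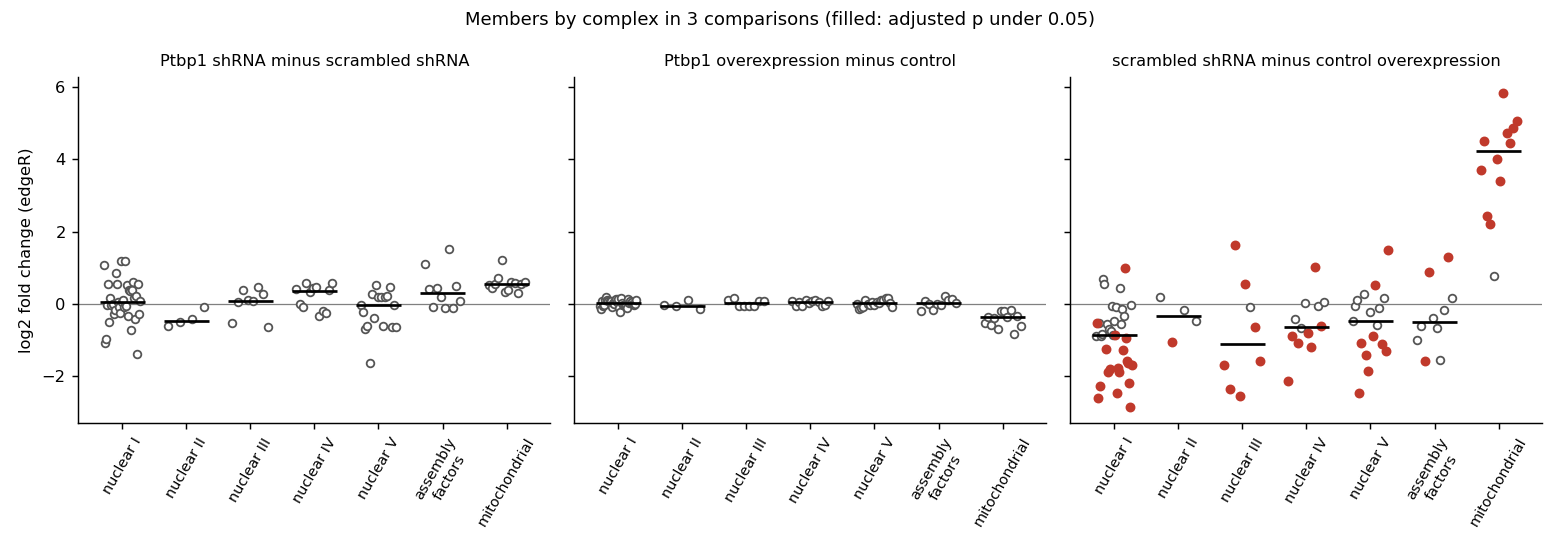
Log2 fold change of each member in the silencing, overexpression and control comparisons, with nuclear members by complex and mitochondrial mRNAs as the last column; each point is 1 gene, filled where the edgeR adjusted p is under 0.05, and bars are medians. Mitochondrial points lie at 0.30 to 1.21 for silencing and at -0.82 to -0.15 for overexpression, with none filled, and 11 of 12 are filled between the controls.

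The difference between the responses was tested directly, as the silencing log2 fold change minus the overexpression log2 fold change. This fit used 1 spread for all 18 libraries, although the spread differed between the experiments. Fitted apart, edgeR's common coefficient of variation was 90.1% for silencing and 22.3% for overexpression, against 74.6% when shared. SE and p of this fit can therefore be too small for the silencing libraries. Among 17779 genes the edgeR test called 40 (0.225%), 0.118% higher and 0.107% lower, and no member. The 12 mitochondrial mRNAs, which often moved together between libraries and are not 12 separate results, were all positive with a median of 0.98. Of all genes 50.1% were positive, and the nuclear members had a median of 0.03. At an unadjusted p under 0.05 there were 4 higher and 7 lower nuclear members and 3 higher mitochondrial mRNAs, against 7.27% higher and 7.32% lower among all genes. Without Ptbp1 shRNA replicate 2 the mitochondrial median was 0.44. DESeq2 called 871 genes (3.33%), among them 4 of 99 members, close to that share: mt-Co3 and Cox6a1, both higher, and Ndufa10 and Atp5e, both lower. By the edgeR test Ndufa10 came nearest to the threshold, with a difference of -0.95 (SE 0.22, adjusted p = 0.0674), followed by Atp5e (-1.73, adjusted p = 0.130), mt-Co3 (1.90, SE 0.59, adjusted p = 0.142) and Cox6a1 (0.63, adjusted p = 0.157).

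Most calls of the 4 comparisons came from the control groups, scrambled shRNA against the control vector of the overexpression experiment. Vector type and experiment cannot be told apart here, because each control group belongs to its own experiment. The test used the same spread shared over all 18 libraries, so its SE and p can be too small for the scrambled libraries. Of 17779 genes, the edgeR test called 35.8%, with 18.4% higher and 17.3% lower in the scrambled libraries; the shares at an unadjusted p under 0.05 were 22% and 22.3%. In all, 48.7% were positive, and the median log2 fold change of all genes was -0.06. Among the members, 11 of 12 mitochondrial mRNAs were called higher, with a median of 4.23. In contrast, 37 of 87 nuclear members were called lower and 8 higher, with a median of -0.66. For this comparison, counts of genes that rose or fell are counts of genes called. Some mitochondrial mRNAs met the limit of 5 CPM only through the silencing libraries, where they were high. Among them, mt-Nd2, mt-Nd4l, mt-Nd6 and mt-Atp8 were under 5 CPM in every overexpression library. The choice of such members by itself favours a rise here, in their own values, in the mitochondrial median and in the number called. In 11 mitochondrial mRNAs every scrambled library lay above every control library, against 16.6% of all genes; 43 nuclear members lay wholly below, against 22.2%, and 6 wholly above. Cell type markers differed along with the members. Excitatory neuron markers summed to 5213 to 7353 CPM with scrambled shRNA and 3304 to 3939 with the control vector, and astrocyte markers to 1068 to 1648 against 524 to 762. Counted by gene, 5 of 7 vessel genes tested fell (median -4.93), and of the oligodendrocyte genes 4 of 11 fell and 1 rose (-1.45). As sums these markers overlapped between the groups. Vessel markers summed to 15.0 to 85.6 CPM with scrambled shRNA and 10.3 to 38.7 with the control vector. Oligodendrocyte markers summed to 104 to 161 CPM against 121 to 138. The part of these cell types in the member values was not tested.

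mt-Nd2 (chrM:3914-4951), a membrane-arm subunit of complex I, rose most. Its CPM were 29.5, 115, 105, 93.4 and 120.5 with scrambled shRNA and 0.886, 2.01, 1.39 and 2.17 with the control vector. The groups were far apart, and the log2 fold change was 5.84 (SE 0.62, edgeR adjusted p = 6.39e-07). Since mt-Nd2 became a member only through the silencing libraries, this p is no independent support for a rise. The other complex I mRNAs without many copies rose by 4.86 for mt-Nd5, 5.06 for mt-Nd6 and 3.39 for mt-Nd1. mt-Nd4 (4.73), mt-Nd4l (4.45), mt-Cytb (4.0), mt-Atp8 (4.51) and mt-Atp6 (3.71) also rose. mt-Co1 rose by 2.43 (SE 0.37) and mt-Co2 by 2.20 (SE 0.39), while mt-Co3 did not pass the test (0.79, SE 0.43, edgeR adjusted p = 0.162). The 6 mRNAs with many copied windows had a median of 3.07, and the 6 with few had 4.69. Both mitochondrial ribosomal RNAs rose as well, mt-Rnr1 by 3.36 and mt-Rnr2 by 2.07.

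The nuclear members that fell came from every complex. Complex I had 17 lower and 1 higher of 36 (median -0.86), complex II 1 lower of 4 (-0.32), complex III 5 lower and 2 higher of 8 (-1.10), complex IV 6 lower and 1 higher of 12 (-0.64), complex V 7 lower and 2 higher of 17 (-0.47), and the assembly factors 1 lower and 2 higher of 10 (-0.50). Ndufv1, which holds the NADH site of complex I, fell by 2.85 on the log2 scale (SE 0.43). Ndufa11 (chr17:56717767-56722141, plus strand), an accessory subunit of complex I, stood at 18.3, 10.5, 12.9, 17.8 and 13.5 CPM with scrambled shRNA and at 80.2, 78.6, 95.5 and 97.3 with the control vector. Its groups were far apart, with a log2 fold change of -2.59 (SE 0.30, edgeR adjusted p = 2.04e-06). Uqcrc1 (-2.55), Ndufb7 (-2.46), Atp5d (-2.44), Uqcr11 (-2.35), Ndufa13 (-2.28), Ndufs8 (-2.19) and Cox4i1 (-2.11) followed. Others that fell, by 0.52 to 1.88 on the log2 scale, included Ndufa7, Ndufa9, Ndufa10, Ndufb5, Ndufb8, Ndufb9, Ndufb10, Ndufs5, Ndufs6, Ndufs7, Ndufv3 and Ndufaf3 of complex I, Sdhb of complex II, Uqcr10, Uqcrh and Uqcrq of complex III, Cox5a, Cox6a1, Cox7a2, Cox7a2l and Cox8a of complex IV, and Atp5e, Atp5g1, Atp5g2, Atp5h, Atp5l and Atp5o of complex V. Cox4i1, the largest nuclear subunit of complex IV, stood at 23.3 to 89.7 CPM with scrambled shRNA and at 232 to 327 with the control vector.

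The 8 nuclear members that rose were Uqcrb (1.64, SE 0.28), Atp5s (1.49), Sdhaf3 (1.29), Cox7b (1.04, SE 0.19), Ndufs4 (0.99), Ndufaf4 (0.88), Uqcrc2 (0.56) and Atp5j (0.53). Uqcrb (chr13:66900617-66905378, minus strand) is a small complex III subunit. It stood at 76.4, 112, 74.9, 58.7 and 136 CPM with scrambled shRNA and at 33.3, 25.1, 29.2 and 29.6 with the control vector. Of its windows, 43.4% have a copy elsewhere, so its counts are uncertain. Cox7b, a small complex IV subunit, stood at 270.3, 231, 232, 295 and 252 CPM against 132, 118, 123 and 125. Neither gene overlapped between groups. Atp5b (-0.05), Ndufa4 (0.05) and Sdha (0.19) did not pass the test, so members of the same complex had values in both directions and near 0.

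Among the nuclear members this control difference was lower in transcripts of higher GC content, as it was over all genes tested. In the 29 members with the lowest GC (39.5% to 48.4%) the median log2 fold change was -0.07, with 4 called lower and 7 higher. In the middle 29 (48.5% to 53.8%) it was -0.56, with 10 lower and 0 higher, and in the highest 29 (53.8% to 60.4%) it was -1.67, with 23 lower and 1 higher. All genes tested in the same GC ranges had medians of 0.77, -0.27 and -1.30, with 3.81%, 15.3% and 36.5% called lower and 34.3%, 8.95% and 3.03% called higher. The mitochondrial mRNAs, which had positive values, ranged in GC content from 31.9% for mt-Atp8 to 41.1% for mt-Nd4l. They thus lay at the low end of the nuclear range or below it. Whether GC content accounts for the lower nuclear or the higher mitochondrial members was not tested.

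**Figure D5:**
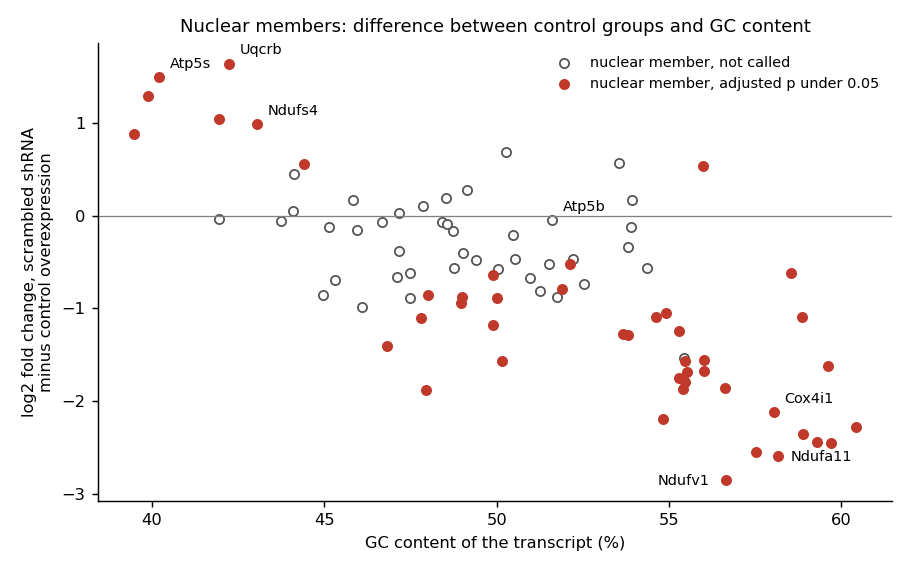
Log2 fold change between the control groups (scrambled shRNA minus control vector) against the GC content of the transcript (percent) for the 87 nuclear members; each point is 1 gene, filled where the edgeR adjusted p is under 0.05. Points fall from a median of -0.07 in the lowest GC group to -1.67 in the highest.

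Use of single exons within members was compared from the deposited exon-bin counts, as the share of a gene's counts that falls in one bin. No member bin passed an adjusted p of 0.05 in either experiment by the edgeR quasi-likelihood test on bins: none of 628 for silencing (0.0012% of all bins called) and none of 747 for overexpression (0.034%). At an unadjusted p under 0.05 there were 6 and 4 member bins, 0.955% and 0.535%, against 1.98% and 1.38% of all bins. For silencing the smallest p belonged to bin 10 of Ndufaf4, a complex I assembly factor, with 10.7% ± 11.7 (SD, n = 4) of its counts with Ptbp1 shRNA and 1.00% ± 0.884 (SD, n = 5) with scrambled shRNA (edgeR adjusted p = 0.827). For overexpression it belonged to bin 3 of Ndufv3, a complex I subunit known for 2 splice forms, with 11.1% ± 2.70 (SD, n = 5) against 7.38% ± 1.66 (SD, n = 4) and an edgeR adjusted p of 1.0. mt-Co2 had 11 bin counts in all against 10389 gene counts, so bins say nothing about it.

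Genes of other mitochondrial functions were described by the same counts. In the silencing, overexpression and response-difference comparisons none passed the edgeR test; the silencing medians were 0.31 for mitochondrial RNA machinery, -0.02 for biogenesis regulators, 0.06 for the tricarboxylic acid cycle, 0.09 for mitochondrial ribosomal proteins, 0.05 for other assembly factors, -0.03 for electron carriers and -0.09 for carriers and import. Those with the smallest p for silencing included Fastkd2, which acts on mitochondrial RNA (1.76), Hspa9, the import motor chaperone (1.10), Tfam, which packs mitochondrial DNA (1.11), and Vdac1, the main outer-membrane channel (-0.85). Between the control groups, where 18.4% of all genes rose and 17.3% fell, 5 of 77 mitochondrial ribosomal protein genes rose and 16 fell (median -0.46). Of 17 tricarboxylic acid cycle genes 4 rose and 6 fell (-0.33), and of 32 other assembly factors 6 rose and 9 fell (-0.30). The biogenesis regulators had 7 of 15 higher and 2 lower (0.45), among them Ppargc1a, the coactivator PGC-1alpha, which rose by 1.71, and Prkaa2, a catalytic subunit of AMP-activated kinase, which rose by 1.90. The RNA machinery of mitochondria had 6 of 25 higher and 4 lower (0.31), electron carriers 3 of 12 higher and 2 lower (0.36), and carriers and import 4 of 13 higher and 1 lower (-0.25).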

How the data were processed

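RNA from TRAP of 18 mice was sequenced, and per the submitters' processing notes reads were aligned with STAR 2.5.3a to mm10 and counted with HTSeq. The authors deposited counts per gene and per exon bin, not normalized; no source used here gives the annotation release or strand setting. The experiments are separate tables of counts. All genes were fitted with edgeR 4.0.16 (quasi-likelihood, trimmed mean of M values scaling, edgeR's default low-count filter, R 4.3.3), p-values were adjusted over all genes tested by Benjamini-Hochberg, and 0.05 was the threshold. Silencing and overexpression were fitted within their experiment; the response difference and the controls were fitted over all 18 libraries. Exon bins were tested by edgeR on each bin relative to its gene. Means carry SD, fold changes SE.

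DESeq2 1.42.0, limma 3.58.1 (voom), other scalings, no filter, a joint fit and leaving out each library were alternatives. Intervals cover 95%. Transcript length, GC and copied windows of 50 bases came from GENCODE M21, as did gene coordinates, and promoters came from RefSeq. Replicate numbers follow accession order and pair nothing.

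The members and lists were chosen with earlier results of these data known. Named genes are all mitochondrial mRNAs, every called member (save one not reported here), the 3 nuclear members with the smallest p in each direction, the member of highest level per coding length in each complex, tissue forms of subunits, and the bins with the smallest p. Of the marker lists, hippocampal markers summed to 82.2 to 296.7 CPM, oligodendrocyte markers to 76.6 to 163.7 and vessel markers to 10.3 to 206 per library.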

Additional observations from a re-analysis of the deposited data

Results flagged for a closer look

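In 5 of 8 cases where 1 library lay far from the rest of its group, that library was Ptbp1 shRNA replicate 2 and the value was mitochondrial mRNA. Its summed mitochondrial level was 4404 CPM, while the other 3 Ptbp1 shRNA libraries had 1411 to 1848. It had 315 CPM of mt-Nd1 against 146 to 164, 1012 CPM of mt-Nd5 against 208 to 323, 97.9 CPM of mt-Nd6 against 15.0 to 23.3 and 379.9 CPM of mt-Cytb against 105 to 130.1. The same library had the most well-covered exon bins at 0 and the most Malat1 of all 18; their part in these values was not tested.

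Single values of 3 nuclear members also lay apart. Ndufaf1, a complex I assembly factor, stood at 57.3 CPM in Ptbp1 shRNA replicate 4 and at 14.4 to 18.5 in the other 3. Atp5d, the delta subunit of ATP synthase, stood at 119 CPM in scrambled shRNA replicate 5 and at 36.1 to 50 in the other 4. Ndufa1 stood at 25.2 CPM in Ptbp1 overexpression replicate 1 and at 28.2 to 28.4 in the other 4, a small gap among libraries that were otherwise very close. In all, 136 sets of values, for 30 genes, 3 sums and 1 ratio, were examined in groups of 4 or 5 libraries. Chance alone marks about 1 set in 20.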

How the results depend on the processing

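No paired analysis was possible because replicate numbers were given in accession order and the labels pair no libraries. Outside the fits that left out 1 library, 124 summary values were kept and 6 moved. A median was kept if it shifted by less than the pooled SD between libraries, whatever its sign. A ratio also had to keep its sign, and a count of genes called had to stay similar in size. The number of nuclear members called for silencing went from 0 to 2 with DESeq2 (Ndufa10 -1.07, Atp5e -1.62; 3.22% of all genes called) and to 8 of 87 when all 18 libraries shared 1 fit (9.98% of all genes): Cox6a1 and Ndufb3 higher, and Ndufa10, Atp5c1, Atp5e, Atp5j, Ndufs8 and Ndufa11 lower. For the response difference DESeq2 called 3 nuclear members and 1 mitochondrial mRNA (mt-Co3, 1.92), with 3.33% of all genes called, and leaving out 1 library gave 0 to 2 nuclear members: Ndufa10 without Ptbp1 shRNA replicate 1 (0.775% of all genes), and Ndufa10 and Atp5j without replicate 4 (0.955%). The causes were not tested.

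A setting chosen after seeing the data left out Ptbp1 shRNA replicate 2 and scrambled shRNA replicate 5, the least evenly covered silencing libraries. It gave 9 of 12 mitochondrial mRNAs above 0 for silencing with a median of 0.13, reversed values for mt-Nd2 (-0.068), mt-Nd4l (-0.13), mt-Nd6 (-0.51) and mt-Nd3 (-0.60, not a member), 1 nuclear member called for the response difference (Sdhc, with 1.51% of all genes called), and a median of -0.79 for nuclear members between the controls. A fit of the control libraries only, also added later, called 47 nuclear members and 34.2% of all genes.

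With 1 library left out, silencing values ranged from -0.20 to 0.86 for mt-Nd2, -0.45 to 0.97 for mt-Nd3, -0.0033 to 0.79 for mt-Nd4, -0.17 to 0.49 for mt-Nd4l, -0.21 to 0.89 for mt-Nd5, -0.38 to 1.06 for mt-Nd6 and -0.32 to 0.68 for mt-Cytb, each lowest without Ptbp1 shRNA replicate 2. The mitochondrial median ranged from 0.02 to 0.73. For overexpression mt-Cytb ranged from -0.51 to 0.0068 and mt-Nd4 from -0.34 to 0.00024, highest without Ptbp1 overexpression replicate 3, and the median from -0.57 to -0.21. For the response difference mt-Cytb ranged from -0.12 to 0.86 and the mitochondrial median from 0.44 to 1.12. The log2 ratio of mitochondrial to nuclear counts ranged from 0.22 to 0.76 for silencing and from -0.63 to -0.24 for overexpression. Between the controls the nuclear median ranged from -0.79 to -0.62, with 41 to 54 members and 29.6% to 39.2% of all genes called, and 11 mitochondrial mRNAs were called each time. The number of member bins called for overexpression ranged from 0 to 1, the one being in an identifier that joins Ndufb8, Gm20538 and Sec31b, without control overexpression replicate 4. DESeq2 moved the median of all genes between the controls to -0.22, over more genes than the edgeR test. Gene totals rebuilt from exon bins kept only 4 mitochondrial mRNAs for silencing and 3 for overexpression.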

Other observations

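Cox6a2, the form of a complex IV subunit known from heart, muscle and some neurons, fell short of the level required of members, with a mean of 2.48 CPM. It stood at 3.89, 5.67, 5.30 and 8.70 CPM with Ptbp1 shRNA and at 0.0625, 0.399, 0.499, 0 and 0.0383 with scrambled shRNA, so that all shRNA libraries lay above all scrambled ones. The same held for 2.37% of all genes tested, and the scrambled values of Cox6a2 were near the floor of detection. The log2 fold change was 4.85 (SE 1.40, edgeR adjusted p = 0.212). Cox6a2 was singled out after its values were seen. In the overexpression experiment it stood at 1.06 to 4.89 CPM.

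Processed pseudogenes with symbols of this family took counts as well. Ndufb4c had a mean of 45.2 CPM, Atp5l2-ps 29.9, Ndufab1-ps 15.9 and Atp5l-ps1 15.1.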
